A study of Mus musculus with 12 samples.

Results

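Neurotrophin mRNA was examined in the hippocampus of mice that lack upstream stimulatory factor 1 (USF-1 KO) and of their wildtype (WT) littermates. The genes described are the rows of the deposited expression table that carry the names Bdnf, Ntf3, Ntrk2, Ntrk3, Ngfr, Vgf and Nrn1. They are 7 of the 55487 genes listed, of which 34296 had reads in at least 1 mouse. Each of the 12 libraries came from the hippocampus of 1 mouse of the C57Bl/6JRccHsd strain, aged 3 to 4 months. The WT group held 6 mice (4 females and 2 males, named WT1 to WT4 and WT5 to WT6). The USF-1 KO group held 6 (2 females and 4 males, KO1 to KO2 and KO3 to KO6). By these sample labels, which are used throughout, sex was not balanced between the genotypes. The paper's legend to its figure of hippocampal expression instead gives 3 males and 3 females per genotype, and this conflict was not resolved. Both genotypes were bred from heterozygous parents, the deletion is constitutive, and a difference can therefore arise outside the hippocampus or during development. The values, here called normalised counts, are numbers of reads scaled by the authors with 1 size factor per library, and the libraries held between 21679622 and 32091173 reads on genes.

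Neurotrophins are secreted growth factors that support the survival of neurons and shape their dendrites and synapses. Brain-derived neurotrophic factor (Bdnf) acts through the receptor tyrosine kinase TrkB, the product of Ntrk2, and neurotrophin-3 (Ntf3) acts mainly through TrkC, the product of Ntrk3, while the receptor p75 (Ngfr) binds all of them and prefers their uncleaved precursors. In the hippocampus Bdnf is made by excitatory neurons, is transcribed from several promoters that respond to neuronal activity, and has long been studied in depression and in the action of antidepressants. Vgf encodes a secreted peptide precursor and Nrn1 encodes neuritin, a small protein anchored at the cell surface that promotes the growth of neurites, and both are induced by neurotrophins and by activity. USF-1 is a transcription factor of the helix-loop-helix class that binds the E-box CACGTG, and USF proteins bind a promoter of Bdnf in neurons. The comparison therefore addresses whether the loss of USF-1 goes with a change of Bdnf mRNA, of its receptors or of genes that it regulates.

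The promoter letters were examined first, because USF-1 binds the E-box CACGTG. RefSeq promoter windows on GRCm38.p6, which run from 250 bases before to 50 bases after a transcription start, were at hand for 4 of the 7 genes, with 7 windows for Bdnf, 2 for Ntf3, 1 for Ntrk2 and 1 for Ngfr. The E-box CACGTG, which reads the same on both strands, was found in 1 of these 11 windows, that of the first Ntf3 start, beginning 231 bases upstream. Among all 32851 windows of the table, 7.15% held it. None of the 7 Bdnf windows held it. The cyclic AMP response element TGACGTCA, to which the activity-regulated factor CREB binds, was in none of the 11 windows and in 1.79% of all windows. Its 5-letter core CGTCA, read on either strand, was in 1 of the 11 windows, that of the third Bdnf start, beginning 35 bases upstream, and in 20.8% of all windows. That start is the one commonly called promoter IV, the best known of the activity-dependent promoters of Bdnf. Only these letters were searched, and other forms of the E-box within the windows were not. A match describes letters only, and a window without a match says nothing about binding to other letters in it or elsewhere. The 250 bases upstream of these starts are shown because they hold the matches, which are in capitals (CGTCA for Bdnf, CACGTG for Ntf3), each on the strand of its gene and from 5′ to 3′. The Bdnf stretch is chr2:109692186-109692435 on the plus strand and the Ntf3 stretch is chr6:126166745-126166994 on the minus strand. Distances are counted from the RefSeq starts. The GENCODE annotation of Ntf3 reaches to 126166910, so part of the Ntf3 stretch lies inside the gene as annotated there.
Bdnf: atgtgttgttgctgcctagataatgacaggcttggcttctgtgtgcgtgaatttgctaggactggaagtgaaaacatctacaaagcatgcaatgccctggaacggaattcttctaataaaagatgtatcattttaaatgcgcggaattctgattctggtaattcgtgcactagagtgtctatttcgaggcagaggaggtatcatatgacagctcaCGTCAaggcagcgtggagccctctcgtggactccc
Ntf3: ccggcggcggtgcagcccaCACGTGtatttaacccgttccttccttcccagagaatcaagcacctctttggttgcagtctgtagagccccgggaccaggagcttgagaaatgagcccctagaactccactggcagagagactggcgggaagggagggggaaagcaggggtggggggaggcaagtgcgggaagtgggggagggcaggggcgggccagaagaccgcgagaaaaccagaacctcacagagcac

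None of the 7 genes passed the threshold between the genotypes. Of 18221 genes that averaged at least 10 normalised counts, 164 (0.9%) differed at an adjusted p under 0.05 (limma on log2(normalised count + 1), two-sided, Benjamini-Hochberg adjustment), 29 higher and 135 lower in USF-1 KO. In edgeR 151 did so, in DESeq2 602 of 17005 (3.54%), and in limma with 1 mouse left out between 64 (0.352%, without WT1) and 515 (2.83%, without WT4). All 7 genes were among those tested, and 0 of 7 were called by limma, by edgeR or by DESeq2. At an unadjusted p under 0.05, 2 of the 7 differed by each of these tools, Ntf3 and Ntrk3, both higher in USF-1 KO, against 13.5% of all genes tested in limma and 5.92% in that direction. For none of the 7 did the genotypes fail to overlap, against 1.5% of all genes tested. The median log2 fold change of the 7 genes was 0.10, beside a median of -0.00065 over all genes tested.

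The targeted gene matched the labels in every mouse. Usf1 ranged from 842 to 1583 normalised counts in WT and from 117 to 163 in USF-1 KO, a log2 fold change of -3.29 (limma, adjusted p = 1.8e-08). WT1 and WT5 stood apart by choroid plexus markers, with 90976 and 237801 summed normalised counts over 9 markers led by Ttr, against 3744 to 6612 in the other 10. WT4 stood apart by activity-induced genes, being the highest WT mouse in 7 of 7 immediate early genes, a pattern noticed after the values were seen. WT4 also had the lowest summed oligodendrocyte markers in WT, 86433 normalised counts against 144315 to 186823 in the others. It was the highest WT mouse for summed markers of astrocytes (123244) and microglia (9694) and the lowest for those of dentate granule cells (14193). Several results below are also given without these mice.

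Compared per kilobase of annotated exon, taken over all transcripts of a gene, the surface protein and peptide genes stood highest and the p75 receptor lowest. This length was 19292 bases for Ntrk2 and 30170 for Ntrk3, against 2249 for Nrn1 and 2973 for Vgf. Where the transcripts present are shorter than this length, a gene is understated, so the order depends on the scale. By normalised counts alone Ntrk2 stood highest, with a mean of 13906 against 4379 for Nrn1. Nrn1 averaged 1947 normalised counts per kilobase over the 12 mice, Vgf 1511, Ntrk2 721, Ntrk3 218, Bdnf 171, Ntf3 87.5 and Ngfr 12.5. These levels put Nrn1 at percentile 97.5 of the genes tested and Ngfr at percentile 13.2. Neighbours in this order did not overlap in their ranges over the mice, apart from 2 pairs. Nrn1 was above Vgf in 11 of 12 mice with ranges that touched, and Ntrk3 was above Bdnf in 12 of 12 mice with ranges that touched. Ntrk2 and Ntrk3 have 10 and 20 annotated transcripts, among them receptors that lack the kinase domain, and Bdnf has 11, so a level per gene does not tell full-length from truncated receptors or one Bdnf promoter from another.

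Bdnf (ENSMUSG00000048482, GRCm38 chr2:109674700-109727007, plus strand) was the neurotrophin with the most mRNA. In WT the lowest mouse had 841 normalised counts, the median was 1019 and the highest had 1135. In USF-1 KO the lowest had 869, the median was 1187 and the highest had 1303. KO3, KO4 and KO5, all males, lay above every WT mouse, while KO1, KO2 and KO6 lay within the WT range, so the groups overlapped. The WT mean was 987 ± 117 (SD, n = 6) and that of the USF-1 KO mice 1139 ± 178 (SD, n = 6). This gave a log2 fold change of 0.20 with an SE of 0.11 and a 95% interval from -0.03 to 0.43 (limma, adjusted p = 0.437), that is a ratio between 0.982 and 1.34. The two-sided exact permutation test over the 924 ways of dividing the 12 mice gave p = 0.134, and without KO1, the lowest mouse of its group, p = 0.0368. With sex as a covariate the log2 fold change was 0.15, and without WT1 and WT5, the 2 lowest WT mice for Bdnf, it was 0.09. The Bdnf exons overlap those of Gm45346, whose reads cannot be told apart without the strand setting.

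Ntf3 (ENSMUSG00000049107, chr6:126101412-126166910, minus strand), the ligand of TrkC, had the largest log2 fold change of the 7. It had 84.1, 126 and 189 normalised counts in the lowest, median and highest WT mouse. In USF-1 KO these values were 141, 176 and 181. All 6 USF-1 KO mice were above the WT mean of 130 ± 35.3 (SD, n = 6), and their own mean was 170 ± 15.4 (SD, n = 6). WT3, at 189, was above all 6 USF-1 KO mice, so the groups overlapped. Its log2 fold change was 0.43 with an SE of 0.15 and a 95% interval from 0.10 to 0.75 (limma, unadjusted p = 0.0134, adjusted p = 0.22). The exact permutation test gave p = 0.0368, the lowest of the 7 genes, with no adjustment for their number. Without KO2, KO3, KO4, KO5 or KO6 in turn this p was 0.0563, 0.0563, 0.0584, 0.0606 and 0.0606, and without WT3 it was 0.00433, where limma gave an adjusted p of 0.0777. Without WT4, the lowest mouse, the log2 fold change was 0.31. Without WT1 and WT5 it was 0.36 (limma, adjusted p = 0.5625). Between 74 and 205 reads per library lay behind these values.

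Ntrk2 (ENSMUSG00000055254, chr13:58806569-59133970, plus strand), which encodes TrkB, was the most uniform of the genes within USF-1 KO, with a coefficient of variation of 4.44%. It had 12854, 13657 and 16819 normalised counts in the lowest, median and highest WT mouse and 12963, 13809 and 14395 in USF-1 KO. WT4 was the highest of the 12 mice, and the other 5 WT mice spanned the range of the USF-1 KO mice. Between the genotypes the log2 fold change was -0.04 with an SE of 0.06 and a 95% interval from -0.17 to 0.09 (limma, adjusted p = 0.827), and its sign turned, to 0.01, without WT4. The exact permutation test gave p = 0.628. The interval leaves room for a ratio between 0.889 and 1.07.

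Ntrk3 (ENSMUSG00000059146, chr7:78175959-78738012, minus strand), which encodes TrkC, fell into separate levels within USF-1 KO. It had 5687, 6195 and 6674 normalised counts in the lowest, median and highest WT mouse. KO2, KO3, KO4 and KO5 had 7493, 7110, 7898 and 7367, all above every WT mouse. KO1 and KO6 had 5877 and 6059, below the WT median, so the groups overlapped. The WT mean was 6182 ± 365 (SD, n = 6) and that of the USF-1 KO mice 6967 ± 817 (SD, n = 6). Its log2 fold change was 0.17 with an SE of 0.07 and a 95% interval from 0.01 to 0.32 (limma, unadjusted p = 0.036, adjusted p = 0.323). The exact permutation test gave p = 0.0671, and 0.0238 without KO1, 0.0281 without KO6 and 0.0368 with libraries rescaled to the same total. This p rose to 0.132 without KO4, 0.128 without KO2 and 0.123 without WT1. Without WT1 and WT5 the log2 fold change was 0.14 (limma, adjusted p = 0.664).

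Ngfr (ENSMUSG00000000120, chr11:95568818-95587735, minus strand), the p75 receptor, had the fewest reads of the genes described. It had 13.6, 52.4 and 69.0 normalised counts in the lowest, median and highest WT mouse and 20.6, 37.3 and 56.6 in USF-1 KO, from 12 to 82 reads per library. WT4 was the lowest and WT5 the highest of the 12 mice, and the WT mice enclosed the USF-1 KO mice on both sides. The log2 fold change was -0.22 with an SE of 0.35 and a 95% interval from -0.96 to 0.52 (limma, adjusted p = 0.825), and the exact permutation test gave p = 0.589. Without WT4 the log2 fold change was -0.54 (limma, adjusted p = 0.271, exact permutation p = 0.0693). It was -0.06 without KO5 and 0.09, with the opposite sign, without WT1 and WT5. Over all 12 mice a ratio anywhere between 0.513 and 1.43 was left within the error. In the adult brain p75 is best known from the cholinergic neurons of the basal forebrain. Of 5 markers of those cells only Slc5a7 reached a mean of 10, and their summed level was 13.1 to 50.8 normalised counts in WT and 7.84 to 41.2 in USF-1 KO. Slc5a7 itself, with 4 to 31 reads per library, had a log2 fold change of -0.98 (limma, adjusted p = 0.148). Its relation to the Ngfr values was not tested.

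Vgf (ENSMUSG00000037428, chr5:137026392-137033351, plus strand) had 3792, 4230 and 5603 normalised counts in the lowest, median and highest WT mouse and 4081, 4608 and 4987 in USF-1 KO. WT4 was the highest of the 12 mice and WT1 the lowest, and the 6 USF-1 KO mice lay between them. The log2 fold change of Vgf was 0.05 with an SE of 0.09 and a 95% interval from -0.14 to 0.24 (limma, adjusted p = 0.84), and the exact permutation test gave p = 0.617. The log2 fold change was 0.12 without WT4 (exact permutation p = 0.145), 0.01 without WT1 and -0.04 without WT1 and WT5. WT4 also had the most Arc, Egr1, Fos, Homer1, Nptx2, Nr4a1 and Egr2 among the WT mice, genes that neuronal activity induces as it does Vgf. Arc stood at 7766 normalised counts in WT4 where the other 5 WT mice had 3037 to 6135, and Fos at 980 where they had 204 to 426. The part of this in the Vgf values was not tested.

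Nrn1 (ENSMUSG00000039114, chr13:36725361-36735131, minus strand), which encodes neuritin, had 3943, 4155 and 4572 normalised counts in the lowest, median and highest WT mouse. In USF-1 KO these values were 3682, 4601 and 5286. KO3, KO4 and KO5 lay above every WT mouse and KO1 lay below every one, so the USF-1 KO group was the wider, with an SD of 609 around 4541 against 257 around 4218 in WT (n = 6 each). The log2 fold change of Nrn1 was 0.10 with an SE of 0.08 and a 95% interval from -0.07 to 0.27 (limma, adjusted p = 0.636), and the exact permutation test gave p = 0.29. This log2 fold change was 0.16 without KO1 (exact permutation p = 0.0714), 0.05 without KO4 and 0.04 with sex as a covariate. The exons of Nrn1 overlap those of Fars2.

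**Figure D1:**
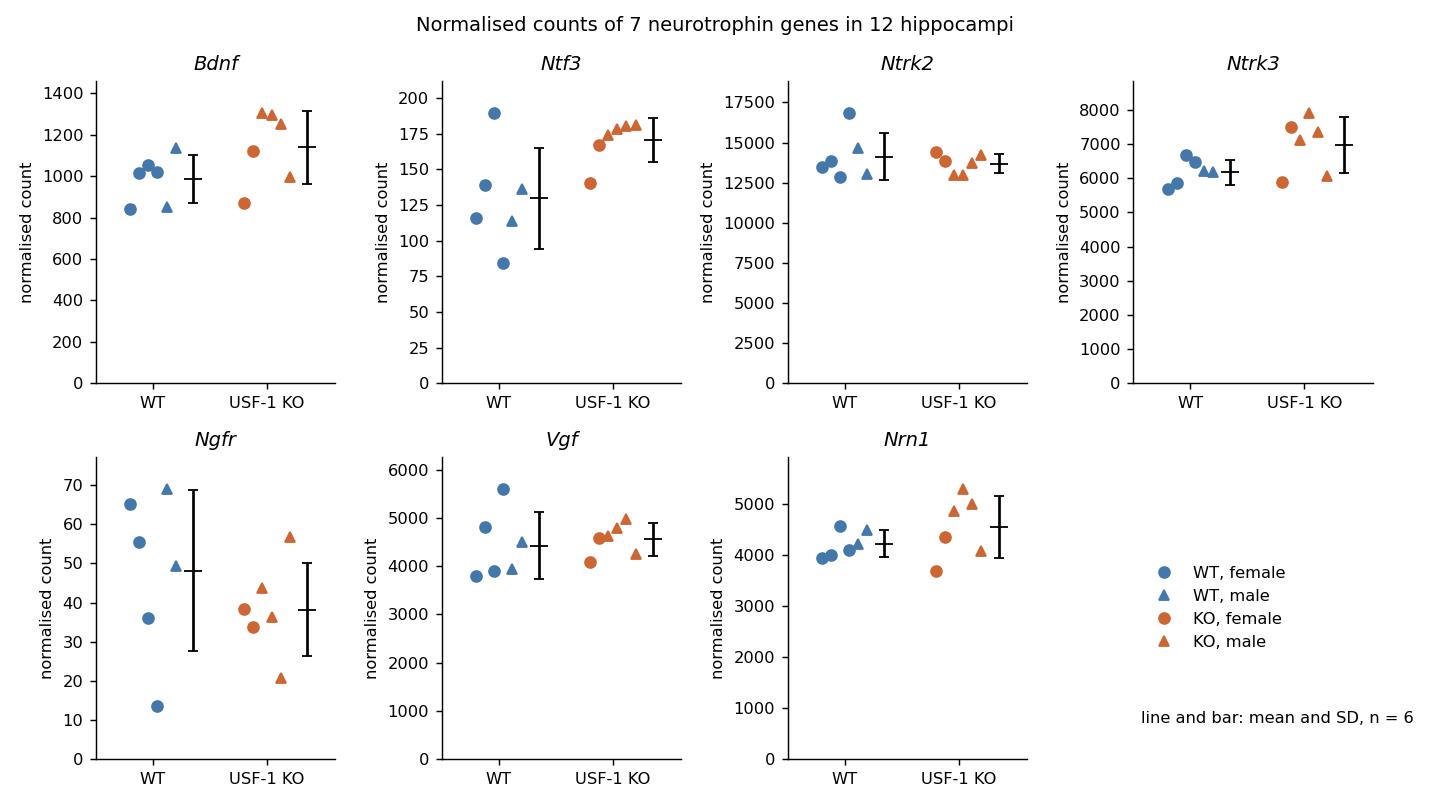
Normalised counts (vertical axis, from 0) of the 7 genes in each of the 12 mice, WT in blue and USF-1 KO in orange, circles for females and triangles for males, with the mean and SD of 6 mice as a bar beside each group. The groups overlap for every gene, and KO3, KO4 and KO5 lie above all WT mice for Bdnf, Ntrk3 and Nrn1.

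The genotype difference was also read within each sex. For Bdnf the log2 fold change was 0.01 in females (95% interval -0.32 to 0.34) and 0.29 in males (-0.03 to 0.62). For Ntf3 it was 0.27 in females and 0.52 in males, for Ntrk3 0.11 and 0.19, for Vgf -0.05 and 0.14, and for Nrn1 -0.05 and 0.14. For Ngfr it was -0.03 in females and -0.65 in males, and for Ntrk2 -0.0044 and -0.04. Although each of the 7 estimates was of larger size in males, the term for sex by genotype was called for 0 of 7 genes (limma, adjusted p = 0.9999 for each), and the unadjusted p was 0.208 for Bdnf and at least that for the others. Over all genes tested the term was called for 0.0% by limma and passed an unadjusted p under 0.05 for 3.45%, with 628 genes in limma and 639 in edgeR. With 2 WT males and 2 USF-1 KO females by the sample labels, the design could show only large differences between the sexes.

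**Figure D2:**
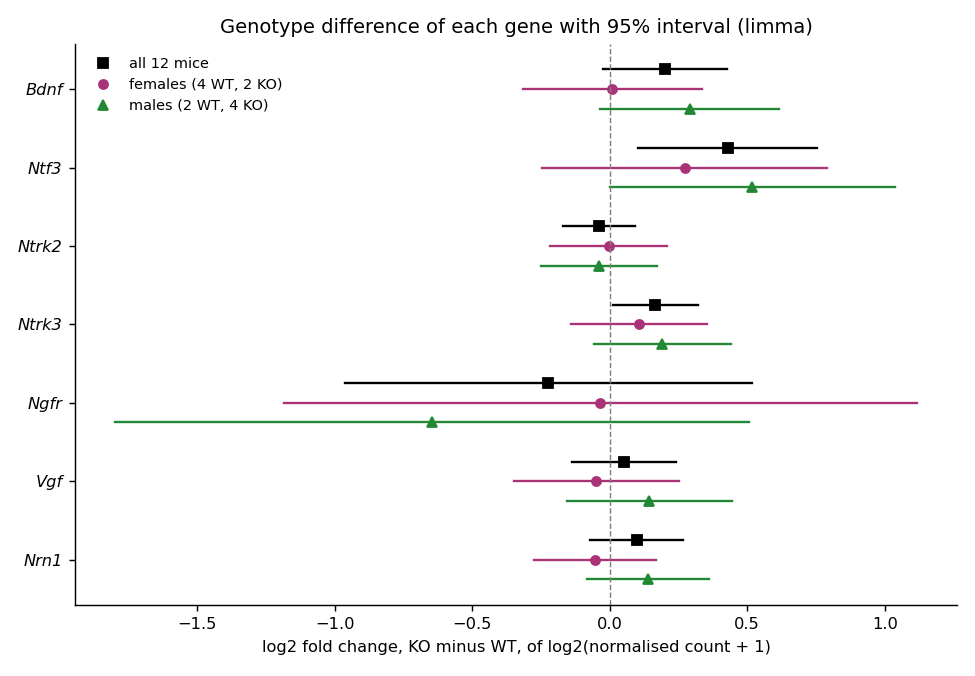
Log2 fold change, USF-1 KO minus WT, of log2(normalised count + 1) for each gene (horizontal axis) with its 95% interval from limma, for all 12 mice (black squares), females (purple circles, 4 WT and 2 KO) and males (green triangles, 2 WT and 4 KO). The intervals over all mice exclude 0 for Ntf3 (0.10 to 0.75) and Ntrk3 (0.01 to 0.32) before adjustment, and the Ngfr interval is the widest.

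The next question was whether mice with more Bdnf mRNA also had more mRNA of the other 6 genes. Nrn1 followed Bdnf most closely, with a Pearson r of 0.87 over the 12 mice (permutation p = 0.00027, adjusted over 6 pairs p = 0.00162) and a Spearman rho of 0.87 (permutation p = 0.00043, adjusted p = 0.00258). Without KO3 and KO4, the mice farthest from the median of Bdnf, the r was 0.80. Ntrk3 had an r of 0.82 (permutation p = 0.00128, adjusted p = 0.00384) and a rho of 0.78 (permutation p = 0.0035, adjusted p = 0.0105), and an r of 0.75 without KO3 and KO4. With each genotype centred on its own mean the r was 0.86 for Nrn1 and 0.77 for Ntrk3, and without WT1 and WT5 it was 0.95 and 0.81.

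Vgf and Ntf3 followed Bdnf less closely, and Ntrk2 and Ngfr ran the other way. The r was 0.59 for Vgf (permutation p = 0.0425, adjusted p = 0.085; rho 0.58, permutation p = 0.0512, adjusted p = 0.0758) and 0.56 for Ntf3 (permutation p = 0.0567, adjusted p = 0.0851; rho 0.45, permutation p = 0.147, adjusted p = 0.147). For Ntrk2 it was -0.42 (permutation p = 0.174, adjusted p = 0.186; rho -0.57, permutation p = 0.0566, adjusted p = 0.0758) and for Ngfr -0.41 (permutation p = 0.186, adjusted p = 0.186; rho -0.56, permutation p = 0.0631, adjusted p = 0.0758). Without KO3 and KO4 these r were 0.60 for Vgf, 0.46 for Ntf3, -0.22 for Ntrk2 and -0.54 for Ngfr. Of the mice left out in turn, WT4 alone changed whether these 4 pairs passed. Without it the r was 0.80 for Vgf (adjusted permutation p = 0.00914), 0.73 for Ntf3 (0.0214), -0.64 for Ntrk2 (0.0388) and -0.63 for Ngfr (0.0388). Without WT1 and WT5 it was 0.35 for Vgf (adjusted permutation p = 0.388), 0.39 for Ntf3 (0.388), -0.51 for Ntrk2 (0.268) and -0.10 for Ngfr (0.776). With centred genotypes the r of Ntf3 was 0.39.

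Within the 6 USF-1 KO mice the r with Bdnf was 0.97 for Nrn1 (exact permutation p = 0.00556, adjusted p = 0.0333), 0.92 for Vgf (exact p = 0.0111, adjusted p = 0.0333), 0.88 for Ntrk3 (exact p = 0.0319, adjusted p = 0.0479), -0.89 for Ntrk2 (exact p = 0.0264, adjusted p = 0.0479), 0.73 for Ntf3 (exact p = 0.0833, adjusted p = 0.1) and -0.37 for Ngfr (exact p = 0.483, adjusted p = 0.483). Within the 6 WT mice it was 0.60 for Nrn1, 0.50 for Vgf, 0.50 for Ntrk3, -0.17 for Ntrk2, 0.34 for Ntf3 and -0.44 for Ngfr, with exact permutation p between 0.186 and 0.807. The difference between the genotypes in these r was not tested. KO1 was the lowest USF-1 KO mouse for 5 of the 7 genes and the highest for Ntrk2, while KO3, KO4 and KO5 were the highest 3 for Bdnf, Nrn1 and Vgf.

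**Figure D3:**
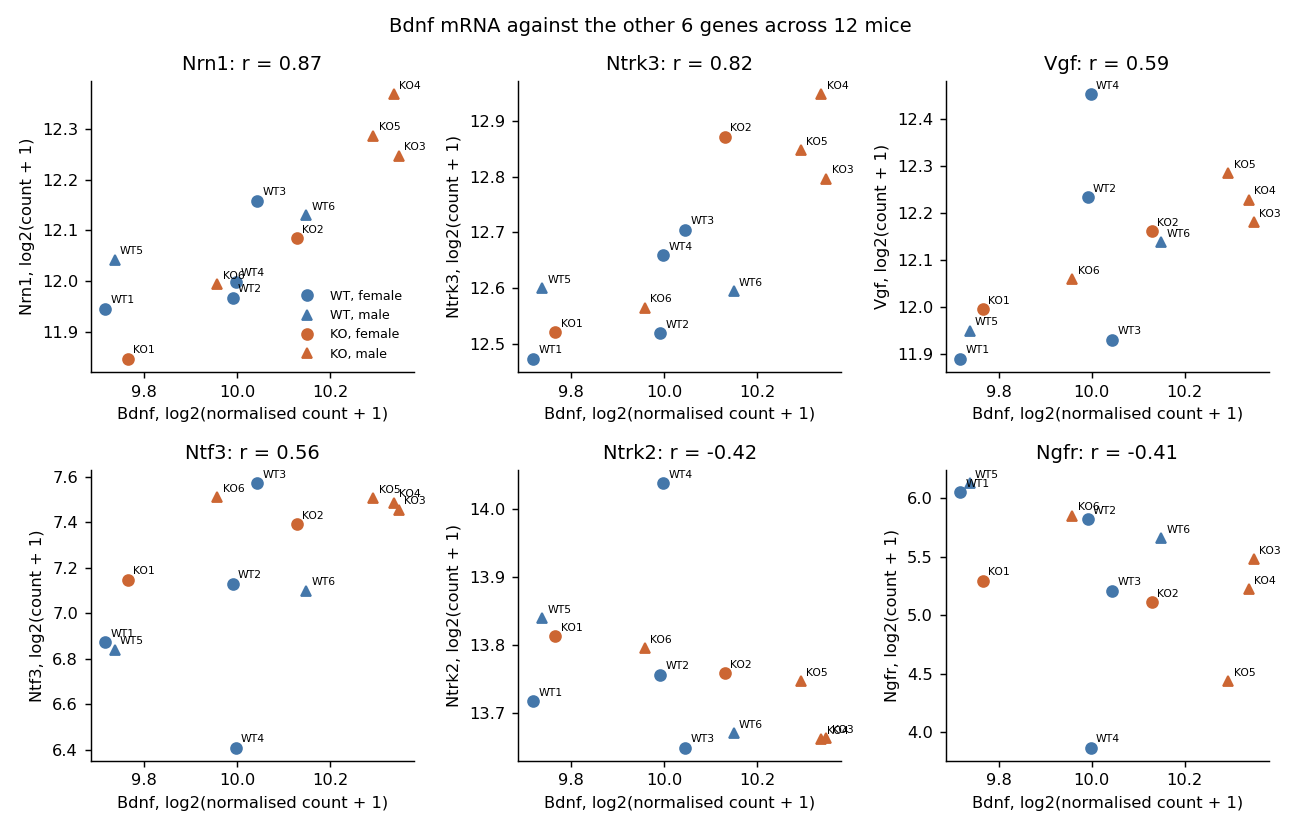
Log2(normalised count + 1) of Bdnf (horizontal axis) against that of each other gene (vertical axis), 1 point per mouse with its name, blue for WT and orange for USF-1 KO, circles for females and triangles for males. Nrn1 (r = 0.87) and Ntrk3 (r = 0.82) rise with Bdnf, and WT4 lies away from the other mice for Vgf, Ntf3, Ntrk2 and Ngfr.

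Bdnf shared this pattern with many genes. Among 12676 genes averaging at least 100 normalised counts, 287 (2.26%) had an r with Bdnf of at least 0.8, Nrn1 and Ntrk3 among them, at ranks 54 and 191. Vgf ranked 1590, Ntf3 1817 and Ntrk2 10110. The most like it were Pcsk2 (r = 0.95), which encodes prohormone convertase 2, Vps51 (r = 0.95), a subunit of a tethering complex of the Golgi, and Nrgn (r = 0.95), which encodes the postsynaptic calmodulin-binding protein neurogranin. Pcsk2 ranged from 7193 to 8240 normalised counts in WT and from 7779 to 9103 in USF-1 KO, with a log2 fold change of 0.11 (limma, adjusted p = 0.337). These genes are ordered by likeness to Bdnf over the same 12 mice, so their r is a description.

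Marker mRNA of several cell types was set beside these values. In whole tissue, fewer cells of a type and less RNA per cell cannot be told apart. Summed over 8 markers of dentate granule cells, led by Fam163b, the normalised counts were 22527, 21148, 21851 and 20376 in KO2, KO3, KO4 and KO5, against 14377 in KO1 and 17229 in KO6, and ranged from 14193 to 21306 in WT, where WT3 was highest. The 4 mice with the highest Ntrk3 were thus 4 of the 5 with the highest summed dentate markers, and WT3 had the most Ntrk3, Nrn1 and Ntf3 of the WT mice. Summed over 7 markers of CA3 pyramidal cells, led by Grik4, the normalised counts were 6505, 8634 and 7138 in KO3, KO4 and KO5. They were 4769 in KO1, 5536 in KO2, 5620 in KO6 and 5299 to 6427 in WT. The sums for CA1 and CA2 pyramidal cells were highest in KO2 (25795 and 6682), and that for interneurons was lowest in KO4 (16980). All 8 dentate markers had a positive log2 fold change, 0 of 8 were called, and their median was 0.23. Markers of oligodendrocytes ran the other way, with 8 of 8 lower in log2 fold change (median -0.68). Of these, 1 of 8 was called (Ugt8a, an enzyme of myelin lipid synthesis, -0.90, limma, adjusted p = 0.0167). Their summed level, led by Mbp, was 86433 to 186823 in WT and 74317 to 113554 in USF-1 KO. WT4 had the lowest WT sum, and the other WT mice had 144315 to 186823. Markers of oligodendrocyte precursors (6 of 6, median -0.24) and of microglia (7 of 7, median -0.21) were also lower in log2 fold change, with 0 called. KO1, the lowest USF-1 KO mouse for Bdnf, Ntf3, Ntrk3, Vgf and Nrn1, had the highest summed markers of neighbouring cortex and thalamus, 6242 against 2901 to 3691 in the other 5. In WT this sum ran from 2979 to 5766, highest in WT1 and next in WT4 (4881). WT1 was the lowest WT mouse for Bdnf, Ntrk3, Vgf and Nrn1, whereas WT4 was the highest for Ntrk2 and Vgf. No marker of these lists was at 0 in all mice, and their part in the values of the 7 genes was not tested.

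**Figure D4:**
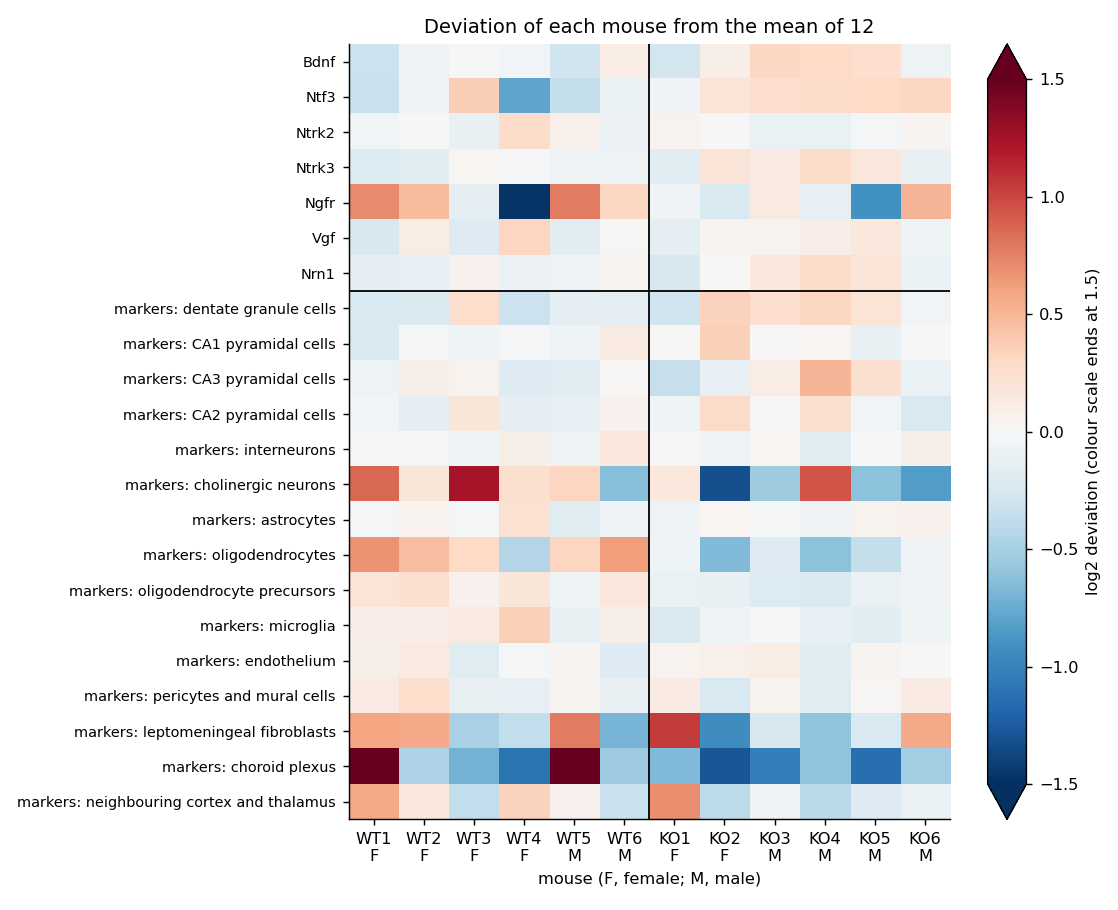
Log2 deviation of each mouse (columns, F for female and M for male, WT left and USF-1 KO right of the line) from the mean of the 12 mice, for the 7 genes (above the line) and for the summed normalised counts of 15 marker lists (below it), in red above and blue below the mean, with the colour scale ending at 1.5. KO2 to KO5 are above the mean for Ntrk3 and for dentate granule cell markers, and WT1 and WT5 stand out by choroid plexus markers.

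Of the other genes of the pathway, 110 of 113 could be tested, and 1 passed the threshold, the targeted Usf1 itself. At an unadjusted p under 0.05, 8 of the 110 were higher and 8, Usf1 among them, were lower in the USF-1 KO mice. Together they were 14.5%, close to the 13.5% of all genes tested. Among the other ligands and receptors, 0 of 7 tested were called in either direction, with a median log2 fold change of 0.03. Sort1, which encodes sortilin, the partner of p75 for uncleaved neurotrophins, had medians of 18190 normalised counts in WT and 19129 in USF-1 KO (log2 fold change 0.03). Lingo1, a co-receptor of p75, had 6648 and 6990 (0.02). Neurotrophin-4 (Ntf5) did not reach a mean of 10, with at most 12 reads in any library. Of the proteases that cleave neurotrophin and Vgf precursors and of their inhibitors, 0 of 13 tested were called (median 0.02), and Cpe, which trims cleaved prohormones, had 54458 and 52780 (-0.02).

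Within the signalling chain below the Trk receptors, 0 of 41 genes were called (median 0.02), 3 being higher and 3 lower at an unadjusted p under 0.05, together 14.6% beside the 13.5% of all genes. Kidins220, a scaffold of Trk receptors, had medians of 9456 normalised counts in WT and 8759 in USF-1 KO (log2 fold change -0.09). The adaptors Shc2 and Gab1, chosen after their values were seen, came nearest to the threshold. Shc2 had 1051 to 1354 in WT and 1275 to 1411 in USF-1 KO (log2 fold change 0.23, SE 0.06, limma, adjusted p = 0.0837). Gab1 had 803 to 1306 in WT and 671 to 956 in USF-1 KO (-0.43, SE 0.11, limma, adjusted p = 0.101). Both passed in DESeq2, which called 4 pathway genes (Usf1, Shc2, Gab1 and Tac1), and in limma without WT4, which called 4 (Usf1, Shc2, Gab1 and the small GTPase gene Rap1a). The 4 genes are 3.64% of the pathway genes, beside 3.54% of all genes in DESeq2 and 2.83% in limma without WT4. This share includes Usf1, the deleted gene, whose call was fixed by the design. Of 9 effectors of p75, 0 were called (median -0.02), and Maged1, which p75 binds, had 15443 and 15743 (0.02).

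Of 19 transcriptional regulators of Bdnf, 1 was called, Usf1, and the median was 0.04. Usf2, the partner of USF-1 that binds the same E-box, had medians of 2018 normalised counts in WT and 2072 in USF-1 KO (log2 fold change 0.06, SE 0.03, limma, adjusted p = 0.468). Crtc1, a co-activator of CREB, had 7645 and 9151 (0.18), and Mef2d, an activity-regulated factor, had 7041 and 8338 (0.17, limma, adjusted p = 0.249). Of 16 genes that Bdnf induces, 0 were called (median -0.07). Egr1 had 4440 and 4474 (-0.04) and Arc 4796 and 4388 (-0.12). The neuropeptide gene Tac1, chosen after its values were seen, had 113 to 210 in WT and 85.04 to 149 in USF-1 KO (-0.59, limma, adjusted p = 0.125) and was called by DESeq2. Of the granins, which share the secretory granules with Vgf, and the paralogue of neuritin, 0 of 5 were called (median -0.06), with Chgb at 17637 and 18013 (0.04).

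**Figure D5:**
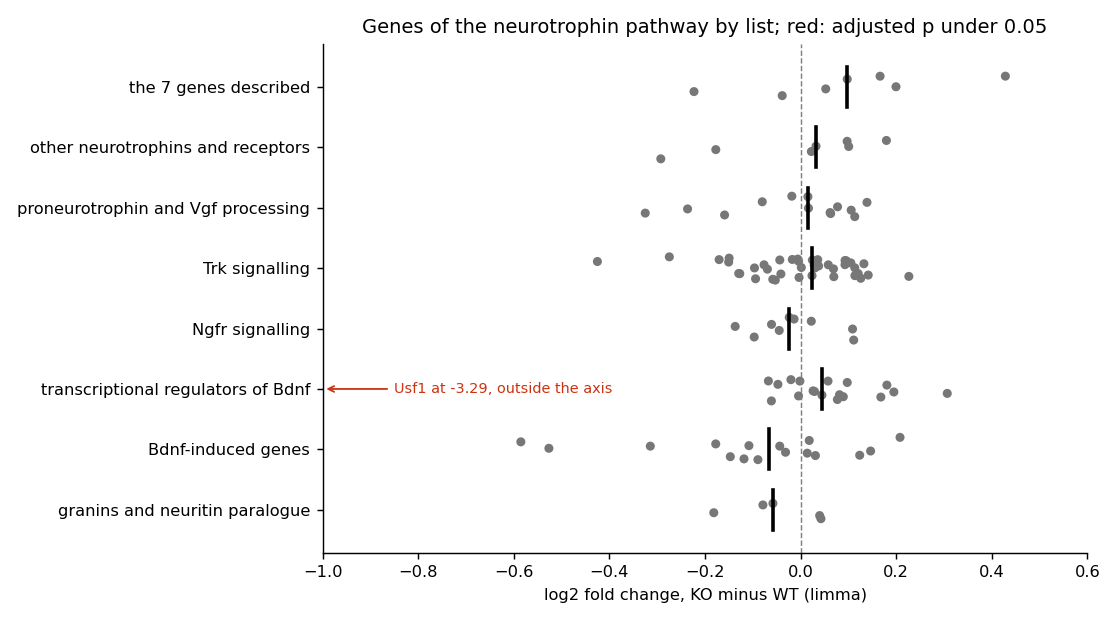
Log2 fold change, USF-1 KO minus WT (horizontal axis, limma), of each tested gene of the pathway, 1 point per gene by list, with the median of each list as a black line and genes at an adjusted p under 0.05 in red. Usf1, at -3.29, lies outside the axis and is the only red gene, and the medians lie between -0.07 (genes that Bdnf induces) and 0.10 (the 7 genes described).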

How the data were processed

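Hippocampal RNA of 12 mice was sequenced, 1 library per mouse, after extraction with a Qiagen miRNA kit and a NEBNext Ultra II RNA preparation. The authors aligned the reads with the Basespace RNA-Seq app and STAR and scaled the gene counts with DESeq2 size factors, and this scaled signal is what they deposited; the submitters' processing notes name STAR 2.5.0a, edgeR 3.22.2 and mm10. Counter, annotation and strandedness are not given in the sources used here. In each library the smallest step divided 100% of the values (within 0.001 of a read), so whole reads could be recovered. Counting error only is covered by the read numbers given.

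Group and sex came from the labels, and replicate numbers name mice only. Genes with a mean of at least 10 were fitted with limma 3.58.1 (R 4.3.3) on log2(normalised count + 1), a scale that understates changes of low genes, with a mean-variance trend and genotype as the only term (Benjamini-Hochberg threshold 0.05), with a fit of sex by genotype beside it. Exact permutation tests covered all 924 assignments, two-sided, and r was tested with 100000 resamples (scipy 1.17.1). Alternatives were pseudocounts of 0.5 and 5, no limit or a mean of 50, rescaled totals, quantile normalisation, sex as a covariate, no trend, edgeR 4.0.16 and DESeq2 1.42.0 on recovered reads, and each mouse left out; leaving out WT1 and WT5 together was added after the data were seen. Positions are those of GENCODE M21 on GRCm38, which match 98.8% of the deposited ones; promoters are from RefSeq. Named besides the 7 genes were the 2 highest genes of each pathway list, genes past the threshold, Usf1, Usf2 and the 3 genes most like Bdnf; some genes of the lists are not reported here. The 7 genes and all lists were chosen with earlier results of these data known. Scripts were tested on simulated data.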

Additional observations from a re-analysis of the deposited data

Results flagged for a closer look

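In 8 of the 76 groups of 6 mice looked at (23 genes and 15 summed marker lists, 2 genotypes each) 1 mouse lay far from the other 5 by Dixon's criterion, where chance would flag about 3.8. That number holds for independent, normally distributed groups. The groups here share the same mice, so the 8 cannot be read as an excess over chance. Among the 7 genes this held for Ntf3 alone, at 140.8 normalised counts in KO1 against 167 to 181 in the other USF-1 KO mice. Among pathway genes, Egr1 was high in WT4 (8545 against 3422 to 4691), Scg3 was low in KO4 (5253 against 5670 to 5868) and Usf1 was low in WT5 (842 against 1425 to 1583). Among summed markers, those of dentate granule cells were high in WT3 (21306 against 14193 to 16065), of CA1 pyramidal cells in KO2 (25795 against 18645 to 20673), of choroid plexus in WT5 (237801 against 4241 to 90976) and of neighbouring cortex and thalamus in KO1 (6242 against 2901 to 3691). What lies behind these values was not tested.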

How the results depend on the processing

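None of the 7 genes was called in the genotype fit or in sex by genotype under any alternative run, each mouse left out included, and Bdnf, Ntf3, Ntrk3 and Nrn1 kept a positive log2 fold change throughout. Ntrk2 turned to 0.0132 without WT4 (exact p = 0.753), and Ngfr and Vgf turned to 0.0935 and -0.0372 without WT1 and WT5. Ngfr has no value at a mean of at least 50. The 164 genes called became 98 with sex as a covariate, 109 without the trend, 602 in DESeq2, 59 without WT1 and WT5, and 64 (without WT1) to 515 (without WT4) with 1 mouse left out. Pathway genes called numbered 4 in DESeq2 and 1 to 4 with 1 mouse left out. With 1 mouse left out the exact p ranged from 0.0368 to 0.247 for Bdnf, from 0.00433 to 0.0606 for Ntf3, from 0.381 to 0.81 for Ntrk2 and from 0.0238 to 0.132 for Ntrk3, which was 0.0368 at rescaled totals. The exact p ranged from 0.0693 to 0.913 for Ngfr, from 0.145 to 0.922 for Vgf and from 0.0714 to 0.5455 for Nrn1. The log2 fold change of Ntrk2 ranged from -0.0644 to 0.0132. The r with Bdnf ranged from 0.49 to 0.73 for Ntf3, -0.64 to -0.35 for Ntrk2, -0.63 to -0.30 for Ngfr and 0.49 to 0.80 for Vgf; Nrn1 and Ntrk3 passed in each. Causes were not tested. No paired analysis was possible because the labels number no replicates. Ngfr and Ntf3 had the fewest reads of the 7 genes, 12 to 82 and 74 to 205 per library. They also had the largest coefficients of variation in WT, 42.8% and 27.2%. The part of counting error in that spread was not tested.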
